A study of Sus scrofa with 20 samples.

Results

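Interferon response genes were followed in boar testis and liver at high and low androstenone. They were MX1, MX2, IFIT2, IRG6, OAS2, USP18, IFIH1 and IRF7, 8 of the 21755 reference IDs counted in each library. They were chosen by symbol with earlier results of these data known. Those results were the testis comparison of high with low androstenone and a rise in a single library of testis and of liver. These patterns are given below as a description without a test. Each gene matched 1 ID: NM_214061.1 for MX1, NM_001097416.1 for MX2, XM_001928671.2 for IFIT2, NM_213817.1 for IRG6, NM_001031796.1 for OAS2, NM_213826.1 for USP18, NM_001100194.1 for IFIH1 and NM_001097428.1 for IRF7.

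Interferons are cytokines that cells release when they detect a virus. Type I interferons bind a receptor that acts through JAK kinases and transcription factors that include STAT2 and IRF9, and these switch on a large set of interferon-stimulated genes. The products of such genes block steps of viral replication, sense viral RNA or feed back on the signal, and uninfected tissue expresses most of them at a low level.

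RNA was taken from frozen testis and liver of 116 day old boars of a Duroc x F2 cross, whose other lines were Leicoma, German Landrace and Large White. Boars had been sorted by the androstenone content of their fat, a steroid pheromone made in the testis and a cause of boar taint. The design had 4 groups of 5 samples, testis low, testis high, liver low and liver high, with 1 library per sample and no treatment named. Both tissues came from the same 10 boars, but the labels do not say that a replicate number marks the same boar in both.

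The testis libraries held 6161397 to 15975386 counts and the liver libraries 5796973 to 26783002. Levels are given as CPM, counts per 1000000 scaled by TMM, edgeR's correction for library composition. Before TMM scaling, a count of 3 was worth 0.188 to 0.487 CPM in a testis library and 0.112 to 0.518 CPM in a liver library. Below about this a level could not be told from 0 for counting error alone. Summed germ cell markers were at 1183 to 3250 CPM in the testis libraries and 8.73 to 160 CPM in the liver libraries. Summed hepatocyte markers were at 63889 to 175281 CPM in the liver and 46.6 to 168 CPM in the testis libraries. The libraries therefore carried the markers of their labelled tissue. CPM are not corrected for transcript length, so levels are compared between samples and not between genes.

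The clearest pattern among the 8 genes was a single label. Low replicate 3 had the highest level of 7 of the 8 genes in testis and of 8 of the 8 in liver. Among all IDs with a mean of at least 1 CPM, low replicate 3 was the highest sample for 6.11% of 14350 in testis and for 4.74% of 11444 in liver. It was the highest in both tissues for 0.766% of the 10450 IDs at that level in both. Relative to the median of the other 9 samples, the level in low replicate 3 was at least 3-fold for 5 genes in testis (0.746% of IDs) and for 6 genes in liver (0.9% of IDs). Counting the highest sample whichever it was, the same 5 and 6 genes were at least 3-fold above, beside 3.6% and 12.7% of IDs. Whether this reflects more RNA per cell or more cells of an expressing type cannot be told apart in bulk tissue. The plot of every sample shows low replicate 3 as a star.

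**Figure D1:**
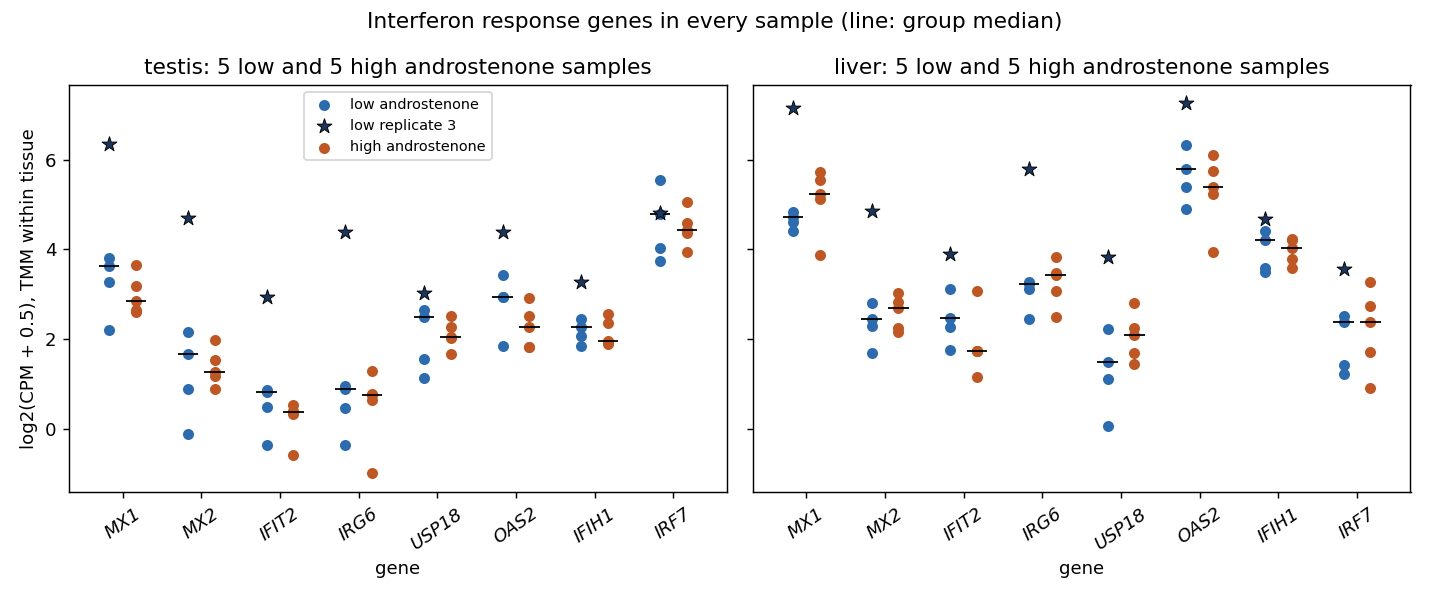
Level of the 8 genes in each testis sample (left) and liver sample (right), as log2(CPM + 0.5) with TMM scaling within the tissue. Blue points are the low and orange points the high androstenone samples, the star is low replicate 3 and lines are group medians. The star is the highest point for 7 of 8 genes in testis and for 8 of 8 in liver.

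MX1 and MX2 encode dynamin-like GTPases, of which MX1 is a classical inhibitor of influenza viruses. In testis, MX1 measured 4.06, 9.10, 81.5, 13.5 and 11.9 CPM in low replicates 1 to 5 and 5.80, 6.71, 12.1, 5.55 and 8.57 CPM in high replicates 1 to 5. In liver, MX1 measured 28.1, 25.8, 141, 20.7 and 23.8 CPM in the low samples and 37.4, 52.1, 46.0, 14.0 and 34.4 CPM in the high samples. Low replicate 3 stood alone in both tissues, and the other low samples lay within or close to the range of the high samples. Its MX1 level was 9.51 times the median of the other 9 samples in testis and 5.01 times in liver.

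MX2 was likewise highest in low replicate 3 of both tissues. Its testis levels were 0.420, 1.34, 25.3, 2.68 and 3.97 CPM in the low samples and 2.38, 1.90, 3.46, 1.35 and 1.74 CPM in the high samples. Its liver levels were 4.38, 2.74, 28.6, 4.93 and 6.46 CPM in the low samples and 7.61, 5.94, 6.53, 3.94 and 4.23 CPM in the high samples. Low replicate 3 was 13.3-fold above the median of the other 9 in testis and 5.80-fold in liver. MX1 and MX2 are related in sequence and the counting of reads that fit both is not given in the sources used here, so how well their counts are separated is uncertain.

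IRG6, the pig gene for viperin (RSAD2), encodes a radical SAM enzyme of the endoplasmic reticulum that limits many viruses. Testis levels were 0.280, 1.34, 20.4, 1.42 and 0.882 CPM in the low samples and 1.93, 1.19, 1.06, 0 and 1.21 CPM in the high samples. The 0 in high replicate 4 was a count of 0 in a library where 3 counts equal 0.487 CPM before TMM scaling. In liver, IRG6 measured 8.13, 9.22, 55.1, 4.93 and 8.85 CPM in the low samples and 10.2, 10.7, 7.84, 5.14 and 13.7 CPM in the high samples. Of the 8 genes IRG6 had the largest ratio of low replicate 3 to the others in both tissues, 17.2 in testis and 6.22 in liver. That one library held 68.7% of the summed CPM of IRG6 over the 10 testis samples.

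IFIT2 encodes a tetratricopeptide protein that binds viral RNA and restrains translation. Its testis levels stayed near the counting floor outside low replicate 3, at 0.280, 0.896, 7.17, 1.26 and 1.32 CPM in the low samples and 0.744, 0.950, 0.798, 0.168 and 0.803 CPM in the high samples. Liver levels were 4.31, 5.03, 14.4, 2.88 and 8.13 CPM in the low samples and 2.83, 7.92, 2.81, 1.71 and 2.82 CPM in the high samples. Low replicate 3 was 8.92-fold above the median of the others in testis and 5.02-fold in liver. In liver the gap was narrower than for the MX genes and IRG6, with low replicate 3 at 1.78 times the second highest sample.

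OAS2 encodes an oligoadenylate synthetase, an enzyme that is activated by double-stranded RNA. In testis, OAS2 measured 3.08, 7.16, 20.5, 10.2 and 7.14 CPM in the low samples and 7.07, 3.03, 3.06, 5.21 and 4.28 CPM in the high samples. In liver, OAS2 measured 29.4, 55.1, 152, 80.1 and 41.2 CPM in the low samples and 68.1, 41.1, 14.8, 37.2 and 53.5 CPM in the high samples. Low replicate 3 was again the highest, by 3.93-fold over the median of the others in testis and 3.70-fold in liver. The remaining samples also spread widely, from 14.8 to 80.1 CPM in liver.

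USP18 encodes a protease that removes ISG15 from proteins and also dampens signalling at the interferon receptor. In testis it was at 7.66 CPM in low replicate 3 against 1.68 to 5.73 CPM in the other 9 samples, a ratio of 2.10 to their median. In liver it was at 13.7 CPM against 0.548 to 6.48 CPM, a ratio of 5.00. USP18 and IRF7 were the genes with a larger ratio in liver than in testis, a difference that was not tested, since it rests on 1 library per tissue.

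IFIH1 encodes MDA5, a cytoplasmic sensor of long double-stranded RNA. In testis low replicate 3 had 9.14 CPM against 3.07 to 5.36 CPM in the others, a ratio of 2.47, and in liver 25.2 CPM against 10.7 to 20.7 CPM, a ratio of 1.58. The liver ratio was below the median of all IDs, whose highest sample stood at 1.86 times the others.

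IRF7 encodes the transcription factor that amplifies type I interferon production, and it was the exception in testis. It measured 27.3, 12.8, 27.4, 15.8 and 46.5 CPM in the low testis samples and 23.4, 14.8, 20.1, 21.0 and 32.7 CPM in the high ones. Low replicate 5 was the highest, at 2.21 times the median of the others, and low replicate 3 ranked 3rd at a ratio of 1.30. In liver IRF7 measured 4.66, 5.23, 11.2, 2.19 and 1.83 CPM in the low samples and 4.71, 1.37, 2.76, 6.16 and 9.16 CPM in the high samples. There low replicate 3 was the highest, at 2.41 times the median of the others but only 1.22 times the second highest sample.

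Across the 8 genes, the highest sample stood at a median of 6.43 times the other samples in testis and 5.00 times in liver, against 1.54 and 1.86 for all IDs. Genes with a high ratio in testis low replicate 3 tended to have a high ratio in liver low replicate 3. Over the 8 genes, its log2 ratio in testis and in liver had a Pearson's r of 0.74 and a Spearman's rho of 0.857, a description over 8 genes from 1 library per tissue. Taking both tissues, 16 IDs were at least 3-fold higher in low replicate 3, or 0.153% of 10450, and 5 of them were IRG6, MX2, MX1, IFIT2 and OAS2. Only 2 others of the 16 had a symbol, namely SLA-3 (ID AB105388.1), a class I histocompatibility gene, and RHBG, an ammonium transporter. The rest had no symbol and could not be named. They included the largest testis ratios of the 16, at 917 and 408, with liver ratios of 4.37 and 3.41.

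**Figure D2:**
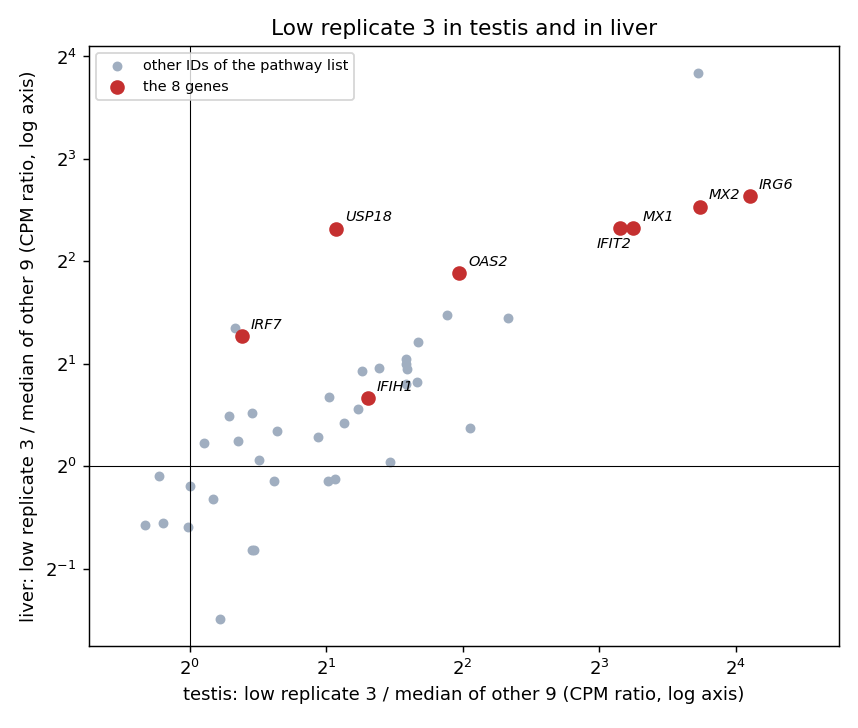
Level in low replicate 3 divided by the median of the other 9 samples, in testis (x) and liver (y), both as CPM ratios on log axes. Red points are the 8 genes and grey points other IDs of the interferon pathway list with a mean of at least 1 CPM in both tissues. IRG6 lies furthest right among the 8 at 17.2 in testis, USP18 lies higher in liver than in testis, and IRF7 and IFIH1 have the smallest ratios of the 8 in testis and in liver, at 1.30 and 1.58.

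Levels of the other samples did not single out a further library across all 8 genes. Setting each gene to the median of its tissue, the median ratio over the 8 genes was 5.89 in testis low replicate 3 and 4.11 in liver low replicate 3, and it lay between 0.442 and 1.40 in the other testis samples and between 0.647 and 1.16 in the other liver samples. The lowest testis sample was low replicate 1, with the lowest level of 3 of the 8 genes. The lowest liver sample was low replicate 4, also with the lowest level of 3 of the 8 genes. The low androstenone group of testis thus held both the highest and the lowest sample by this measure.

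**Figure D3:**
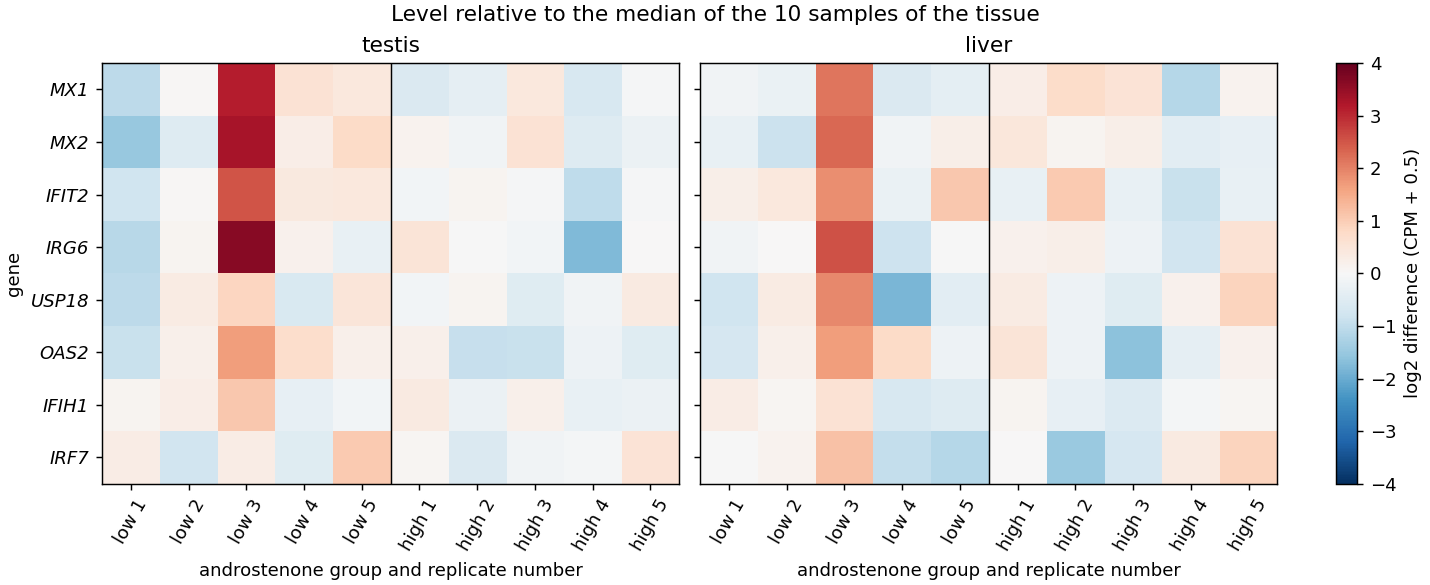
Level of the 8 genes in each sample as the log2 difference of CPM + 0.5 from the median of the 10 samples of the tissue, with testis at left and liver at right. Red is above and blue below the median. Low replicate 3 is the only column red for all 8 genes in both panels, and testis low replicate 1 and liver low replicate 4 each hold the lowest level of 3 genes.

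The genes varied together largely through that library. Over the 28 gene pairs, the median Pearson's r of log2(CPM + 0.5) across the 10 samples was 0.67 in testis and 0.54 in liver. Without low replicate 3 the medians were 0.30 and 0.13. Samples share library and depth effects, so these values are descriptions and were given no p-value.

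Without low replicate 3, an r over 0.5 was seen for 5 of the 28 pairs in each tissue. In testis, MX1 and MX2 had an r of 0.95 over 10 samples and 0.80 over the other 9 (Spearman's rho 0.70), and MX1 and IFIT2 had 0.95 and 0.80 (rho 0.73). IFIT2 and IRG6 had 0.96 and 0.81, but the rho over the other 9 was 0.35, and low replicate 1 and high replicate 4 held at most 2 counts of either gene. In liver, MX1 and IRG6 had 0.90 and 0.69 (rho 0.62), and IFIH1 and IRF7 had 0.84 and 0.76 (rho 0.57). IRG6 and USP18 had 0.82 and 0.66 there (rho 0.73). Pairs of opposite direction were also present in liver without low replicate 3, with an r of -0.63 for IFIT2 and IRF7 and -0.53 for MX2 and IRF7. IRF7 was the gene least tied to the rest of the set in testis, with a median r of 0.14 over its 7 pairs against 0.75 over the 21 pairs without it, and in liver its median was 0.43.

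The androstenone groups of each tissue were set against each other by edgeR's quasi-likelihood test. An ID was called if it differed by at least 1.5-fold with a Benjamini-Hochberg adjusted p under 0.05. In testis the members were chosen with this comparison known, and their values are given without a test. All 8 log2 fold changes, high over low, were below 0, as were 52.0% of IDs, and they were -2.14 for IRG6, -1.69 for MX2, -1.67 for IFIT2, -1.66 for MX1, -1.11 for OAS2, -0.35 for IFIH1, -0.24 for USP18 and -0.22 for IRF7. Without low replicate 3 of testis they were 0.19 for IRG6, -0.02 for MX2, -0.42 for IFIT2, -0.33 for MX1, -0.62 for OAS2, 0.01 for IFIH1, 0.05 for USP18 and -0.20 for IRF7. The group means of MX1 were 24.0 ± 32.4 CPM (SD, n = 5) in low and 7.75 ± 2.71 CPM (SD, n = 5) in high androstenone samples, and the low mean was 9.64 ± 4.13 CPM (SD, n = 4) without low replicate 3. edgeR called 0 of the 18340 IDs (0.0%), with 9.49% of IDs at an unadjusted p under 0.05, and DESeq2 called 52 IDs.

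In liver the genes were chosen with the rise in low replicate 3 known, and that library is in the low group. Their values in this comparison are therefore also given without a test. All 8 log2 fold changes, high over low, were below 0, as were 48.3% of IDs, and ranged from -0.95 for IFIT2 to -0.07 for IRF7. For MX1 the value was -0.38 (SE 0.53). Group means of MX1 were 47.8 ± 52.0 CPM (SD, n = 5) in low and 36.8 ± 14.5 CPM (SD, n = 5) in high androstenone samples. edgeR and DESeq2 each called 0 of the 15855 IDs (0.0%). At an unadjusted p under 0.05 there were 2.93% of IDs. By the mean of log2(CPM + 0.5), USP18 was higher in the high androstenone samples by 0.31, opposite to its sign in edgeR. The other 7 genes were lower by this measure. Without low replicate 3 of liver the direction of 6 of the 8 genes was above 0, from 0.03 for IFIH1 to 0.80 for USP18, while IFIT2 was at -0.49 and OAS2 at -0.24. Values of high and low androstenone samples overlapped for all 8 genes in both tissues (1.79% of IDs in testis and 0.505% in liver did not overlap).

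**Figure D4:**
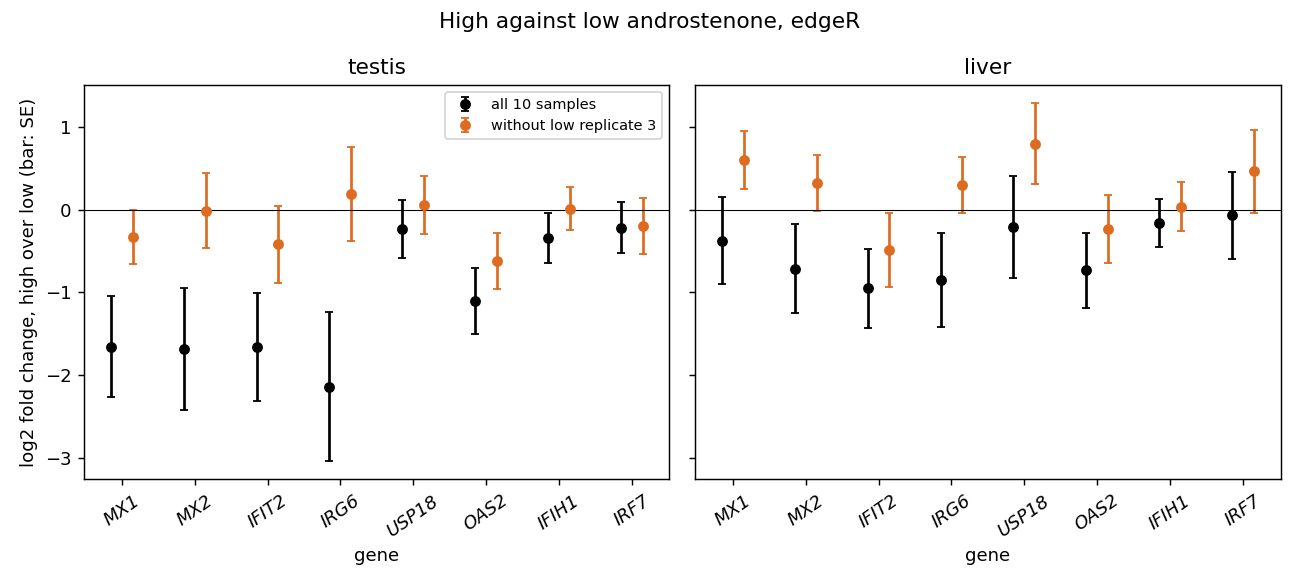
Log2 fold change of the 8 genes, high over low androstenone, in testis (left) and liver (right), from edgeR. Bars are 1 SE, derived from the F statistic of the test. Black points use all 10 samples of a tissue and orange points leave out low replicate 3. In testis the points of MX1, MX2, IFIT2 and IRG6 move from -1.66 or below to between -0.42 and 0.19, and in liver 6 of 8 move above 0.

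Liver had higher levels of 7 of the 8 genes, tested over all 20 samples with the androstenone group as a term. The choice of the genes did not use this comparison, and all 8 were called by edgeR beside 75.8% of the 19065 IDs tested. Lower in testis were 7 of the 8 (32.3% of IDs) and higher in testis was 1 of the 8 (43.5% of IDs). On the joint scale of 20 samples, the median level of OAS2 was 4.37 CPM in testis and 64.0 CPM in liver, with a log2 fold change, testis over liver, of -4.01 (SE 0.34, edgeR adjusted p = 4.3e-11). The 10 testis and 10 liver samples did not overlap for OAS2 and for IFIH1, as for 42.8% of IDs. IFIH1 had medians of 2.84 and 22.1 CPM and a log2 fold change of -2.83 (SE 0.22, edgeR adjusted p = 5.1e-12).

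The other effectors were lower in testis with one sample reaching the liver range. IRG6 had a median of 0.864 CPM in testis and 13.2 CPM in liver (log2 fold change -3.27, SE 0.59, edgeR adjusted p = 1.7e-05). IFIT2 had medians of 0.609 and 5.33 CPM (log2 fold change -2.84, SE 0.42), and MX1 had 6.33 and 43.9 CPM (log2 fold change -2.56, SE 0.47). MX2 had medians of 1.54 and 7.47 CPM (log2 fold change -1.83, SE 0.50, edgeR adjusted p = 0.00175). Without low replicate 3 of both tissues, 6 of the 8 genes had no overlap between testis and liver, against 43.6% of IDs.

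USP18 and IRF7 departed from that order. USP18 was lower in testis by a small margin, with medians of 2.86 and 4.34 CPM and a log2 fold change of -0.93 (SE 0.37, edgeR adjusted p = 0.0227), and it was no longer called without liver low replicate 3 (-0.50, edgeR adjusted p = 0.151). IRF7 was the one gene higher in testis, with medians of 15.8 and 6.95 CPM and a log2 fold change of 1.33 (SE 0.31, edgeR adjusted p = 3.6e-04). The median log2 fold change of all IDs was 0.30 with TMM and 1.28 with library size only. With library size only, MX2 (-0.88, edgeR adjusted p = 0.103) and USP18 (-0.02, edgeR adjusted p = 0.958) were not called, IRF7 stayed higher at 2.24, and the calls over all IDs were 11361 higher and 3583 lower in testis against 8291 and 6162 with TMM.

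**Figure D5:**
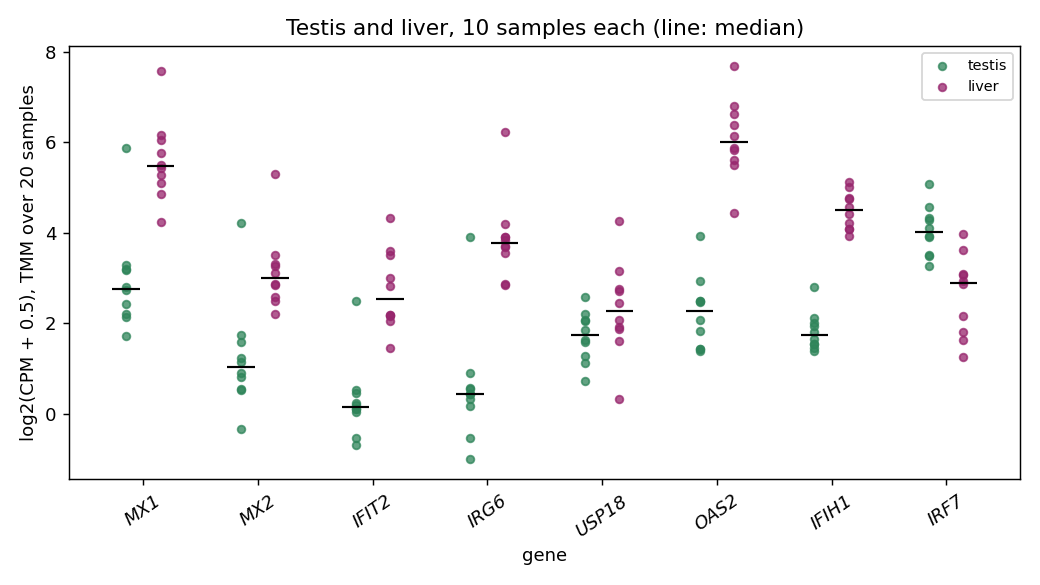
Level of the 8 genes in the 10 testis samples (green) and 10 liver samples (purple) as log2(CPM + 0.5) with TMM scaling over all 20 samples, with lines at the medians. OAS2 and IFIH1 do not overlap between tissues, IRF7 is the one gene with the higher median in testis, and the single high testis points of MX1, MX2, IFIT2 and IRG6 are low replicate 3.

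The rest of the interferon pathway was followed through a list of 109 symbols of interferons, receptors, signal transducers, sensors, effectors and antigen presentation genes. The list was chosen with earlier results of these data known, and it was matched by 49 symbols with 50 IDs. Of these, 38 IDs had a mean of at least 1 CPM in testis, of which 33 were above the median of the other samples in low replicate 3 and 19 were highest there (background 6.11%). In liver 39 IDs had that mean, 27 were above the median and 14 were highest in low replicate 3 (background 4.74%). The median ratio of low replicate 3 to the others was 1.97 in testis and 1.30 in liver, against 1.00 and 1.01 for all IDs. At least 3-fold were 8 IDs in testis and 2 in liver (background 0.746% and 0.9%).

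Interferons themselves had few or no counts, and 0 in a library allows up to 3 counts or the CPM given above. Over the 10 testis and the 10 liver samples, IFNA1 had 6 and 1 counts in all, IFNB1 had 0 and 0, IFNG had 13 and 17, IFNE had 7 and 0 and IFNK had 1 and 2. IFNG in testis low replicate 3 was at 0.309 CPM and in liver low replicate 3 at 0. The only receptor matched, IFNGR1, a chain of the interferon gamma receptor, measured 22.0 CPM in testis low replicate 3 against a median of 14.1 CPM, and 14.0 CPM in liver low replicate 3 against 11.1 CPM.

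Among the transducers, STAT2 and IRF9, transcription factors that type I interferon activates, were highest in testis low replicate 3. The ratios to the other samples were 2.19 for STAT2 and 3.02 for IRF9, and in liver they were 1.34 and 1.93. JAK1, a kinase upstream of them, had ratios of 0.992 and 0.664, and IRF3, a constitutive activator of interferon genes, had 0.798 and 0.670. The kinase and IRF3 were thus not raised in low replicate 3 of either tissue.

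Of the other effectors, 10 of 17 in testis and 8 of 16 in liver were highest in low replicate 3 (background 6.11% and 4.74%). Among list IDs with a mean of at least 1 CPM in testis, the largest ratios there were 13.2 for SLA-3 (ID AB105388.1), 5.05 for PLAC8 and 4.15 for TAP1, which carries peptides to class I molecules. Their liver ratios were 14.3, 2.72 and 1.30. The second SLA-3 ID, NM_001097427.1, had ratios of 1.37 and 0.566, so the 2 IDs of that gene differed and class I reads are uncertain between near-identical alleles and genes. PARP12, a mono-ADP-ribosyltransferase, had one of the 3 smallest ratios of the highest testis sample, with JAK1 and IRF3, at 1.26, but 2.55 in liver low replicate 3.

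Between the tissues, 37 of the 45 pathway IDs tested were lower in testis and 3 were higher by edgeR (background 32.3% and 43.5%). Between high and low androstenone, 0 of the 45 were called in either tissue, beside 0.0% of all IDs.

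The genes whose profile was most like the mean of the 8 were read off by Pearson's r over the 10 samples of each tissue, with at least 1 CPM and a symbol required. In testis the nearest included LOC100517129, LOC733579, SP140, TNFSF10, CDH17, LOC100519643, LOC100519082, FGL2 and TAP1, with r from 0.908 to 0.817. In liver they were ZBP1, EIF2AK2, LOC100152209, ADIPOR2, CCZ1, MINPP1, TERB2, PARP12, CDPF1 and FAM20B, with r from 0.895 to 0.704. Each gene named here was highest in low replicate 3 of the tissue in which it was found, and none was in both lists. The ranking used a profile in which low replicate 3 stood far above the rest, so that peak follows largely from the selection. The r values are likewise the largest among the ranked genes and are no test. Of all IDs, 5% had an r below -0.43 and 5% above 0.45 in testis, and in liver these bounds were -0.41 and 0.41. CDH17, an intestinal cadherin, reached 50.4 CPM in testis low replicate 3 against at most 1.12 CPM in the other testis samples. It met the required mean of 1 CPM only through that library.

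Markers of immune cells were summed in the same samples. Macrophage markers, 4 of 10 of which were matched and none of which was 0 throughout, summed to 18.5 CPM in testis low replicate 3 against 5.88 to 24.4 CPM in the other 9, and to 355 CPM in liver low replicate 3 against 340 to 552 CPM, where it ranked 9th of 10. By group they summed to 5.88 to 24.4 CPM in testis low, 7.74 to 12.9 in testis high, 340 to 508 in liver low and 411 to 552 in liver high samples. T cell markers, 8 of 9 matched, summed to 21.7 CPM against 5.05 to 25.7 CPM in testis, rank 2, and to 22.9 CPM against 13.4 to 41.2 CPM in liver, rank 6. By group their sums were 10.8 to 25.7 CPM in testis low, 5.05 to 17.9 in testis high, 22.9 to 41.2 in liver low and 13.4 to 27.4 in liver high samples. NK cell markers, 4 of 7 matched, ranked 9th in testis and 3rd in liver. B cell markers, 2 of 5 matched, ranked 5th in both. Their testis sum was near the counting floor, at 0.618 CPM against 0.133 to 1.06 CPM, so that rank says little. PECAM1, the 1 endothelial marker matched, was highest in testis low replicate 3 at 49.3 CPM against 13.4 to 48.6 CPM and lowest in liver low replicate 3 at 31.7 CPM against 37.9 to 64.8 CPM. Neutrophil markers, 3 of 4 matched, ranked 3rd in testis and last in liver, and erythroid markers, 3 of 4 matched, ranked 9th and 6th. Leydig and Sertoli cell markers ranked 7th and 4th in testis, and 4 housekeeping genes had a median ratio of 0.968 in testis and 0.925 in liver. None of the 4 markers of plasmacytoid dendritic cells, a major source of type I interferon, was matched. Low replicate 3 lay within the range of the others for the macrophage, T, NK and B cell sums in both tissues. It lay outside that range for PECAM1 in both tissues. For neutrophil markers in liver it was also outside, at 0.216 CPM against 0.685 to 2.40 CPM. In that library 3 counts equal 0.349 CPM before TMM scaling, so this difference says little. The part of any cell type in the levels of the 8 genes was not tested.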

How the data were processed

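The authors sequenced 1 library for each of 20 samples (10 boars, testis and liver), used CASAVA 1.7 for base calls and mapped the reads by BWA against Sscrofa 9.2 transcripts from RefSeq and UniGene. The submitters' processing notes also name SAMtools. The deposited values are raw counts of reads per reference ID, not normalized. How reads that fit several IDs were counted is not given in the sources used here. Each sample had 21785 lines for 21755 IDs, since 10 IDs were listed 4 times, and repeats entered 1 time. The number of IDs given a symbol was 6659, through the RefSeq table for Sscrofa11.1, and IRG6 and IFIT2 also through the study's table of genes. Sequences, transcript lengths and promoter motifs were not analysed here.

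Counts were fitted with edgeR 4.0.16 (R 4.3.3) by TMM and the quasi-likelihood test, over IDs with at least 10 summed counts, for high against low androstenone in each tissue and for testis against liver over 20 samples. DESeq2 1.42.0 was an alternative. Boars of a group were the replicates. Tissues share boars, and the tissue fit treated the 20 samples as independent. The script was tested on simulated data. Ratios, correlations and figures were made with Python 3.11.15, numpy 2.4.6, scipy 1.17.1, pandas 2.3.3 and matplotlib 3.10.9.

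The 8 genes, the pathway list and the marker lists were chosen with earlier results of these data known. Genes named outside the 8 were, in each tissue, the 10 with the highest r to their mean profile (1 is not reported here), the 3 largest and 3 smallest testis rises of the pathway list at a mean of at least 1 CPM, and all interferons and receptors found. STAT2, IRF9, RHBG, PSMB8, PSMB9, B2M, CXCL9, CXCL10 and the immune markers were named after their values were seen.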

Additional observations from a re-analysis of the deposited data

Results flagged for a closer look

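Of 32 combinations of gene and group (8 genes in 4 groups of 5), 10 held a sample far from the other 4, where chance flags about 1 in 20 groups. The genes were chosen with the rise in low replicate 3 of testis and of liver known, and they vary together. The number of such samples therefore cannot be read against that rate. In testis low replicate 3, MX1 was at 81.5 CPM against 4.06 to 13.5 in the other low samples, MX2 at 25.3 against 0.420 to 3.97, IFIT2 at 7.17 against 0.280 to 1.32 and IRG6 at 20.4 against 0.280 to 1.42. In liver low replicate 3, MX1 was at 141 CPM against 20.7 to 28.1, MX2 at 28.6 against 2.74 to 6.46, IRG6 at 55.1 against 4.93 to 9.22 and USP18 at 13.7 against 0.548 to 4.19. The same number in both tissues thus held 8 of the 10. IFIT2 was low in testis high replicate 4, at 0.168 CPM or a single count, against 0.744 to 0.950 in the other high samples. IFIT2 was high in liver high replicate 2, at 7.92 CPM against 1.71 to 2.83.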

How the results depend on the processing

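In testis, 0 IDs were called between high and low androstenone by edgeR's quasi-likelihood test, 52 by DESeq2, 225 by a likelihood ratio test with trended dispersion, and 0 to 2 when each sample was left out, the 2 without testis low replicate 5. In liver the counts were 0, 0 and 45, and 0 to 0 with each sample left out. The calls between tissues lay between 14294 and 14451 with each sample left out. The median rise of the 8 genes was 3.71 against the second highest sample and 4.78 with a pseudocount in testis, and 2.01 and 4.40 in liver. With each sample left out it lay between 1.74 and 6.63 in testis and between 1.94 and 4.79 in liver, both lowest without low replicate 3. The median correlation lay between 0.30 and 0.75 in testis and between 0.13 and 0.66 in liver.

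Log2 fold changes of high over low androstenone that changed sign with a sample left out ranged in testis from -2.46 to 0.19 for IRG6, -0.43 to 0.053 for USP18, -0.48 to 0.0096 for IFIH1 and -0.39 to 0.11 for IRF7. In liver they ranged from -0.59 to 0.60 for MX1, -0.96 to 0.32 for MX2, -1.11 to 0.30 for IRG6, -0.50 to 0.80 for USP18, -0.30 to 0.033 for IFIH1 and -0.44 to 0.46 for IRF7. Without both libraries of low replicate 3, an alternative chosen after seeing the data, USP18 was not called between tissues (-0.66, edgeR adjusted p = 0.0578).

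With the replicate number as a block within a tissue, testis and liver calls were 0 and 0, and USP18 in liver changed to 0.41. That block joins low and high samples, which are different boars. The tissue fit was blocked by androstenone group and number together, and its calls were 14324. The labels do not say whether a number marks the same boar in both tissues, and the correlations do not settle it. Same-numbered testis and liver samples had a mean correlation of deviations of 0.143, from -0.0614 to 0.432 (7 of 10 over 0.1). Samples of different number in the same androstenone group had a mean of -0.0379, from -0.504 to 0.368. Of the 10 numbered samples, 4 correlated best with their own number. Within a tissue, low and high samples sharing a number, which are different boars, had means of 0.0887 in testis and 0.0231 in liver. Depth limits the low genes: IFIT2 and IRG6 in testis had 1 or 2 counts or fewer in some libraries.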

Other observations

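CDH17 was followed further because its ratio was the largest among the genes most like the 8. Its level in testis low replicate 3 was 77.2 times the median of the other testis samples, at 50.4 against 0.653 CPM. LOC100152209 had the largest ratio in liver, 28.7 (8.09 against 0.282 CPM), while its ratio in testis was 1.27. Another liver sample reached 3.84 CPM, and the median of 0.282 CPM was near the counting floor. Both genes met the required mean of 1 CPM only through low replicate 3. The size of these 2 ratios therefore follows in part from the filter and from low levels in the other samples. Of the 10 labels, low replicate 2 was the highest in both tissues for the most IDs, 413 or 3.95% of the 10450 with at least 1 CPM in both, and low replicate 3 for 80.

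Other antigen presentation genes and chemokines of the pathway list were also read in low replicate 3. The immunoproteasome subunits PSMB8 and PSMB9 had ratios of 3.17 and 3.01 in testis and 1.77 and 1.74 in liver. B2M, the light chain of class I molecules, had ratios of 1.42 and 1.04. The chemokine CXCL10 had a ratio of 2.76 in testis and 1.03 in liver, and CXCL9 had 1.38 and 0.566.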
